A study of Homo sapiens with 18 samples.

Results

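The collagen genes were examined in ChIP-seq peak lists of HEK293T cells, an immortal cell line derived from human embryonic kidney. The members were the protein-coding GENCODE genes of chromosomes 1 to 22 whose symbol names a collagen alpha chain (COL, a type number, A, a chain number). This rule found 42 genes among 19111 protein-coding genes of these chromosomes, and no measured value was used in the choice. Peaks were assigned to a gene when they shared at least 1 bp with its body or the 10 kb on either side (its window). The study asked how chromatin changes under histone deacetylase inhibition. Untreated cells (CTRL) were compared with cells given 1 mM valproic acid (VPA) for 1 day, and each of the antibodies against H3K27ac and CTCF was used on 3 replicates of either treatment, giving 12 libraries in 4 groups. All groups were the same line, so the results describe a single cell line, and the labels do not say whether the replicates came from separate cultures. The p-values therefore measure the spread between these libraries, which may be technical.

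Collagens are triple-helical proteins of the extracellular matrix. Fibrillar collagens build the tensile fibres of skin, bone, tendon and cartilage, fibril-associated collagens with interrupted triple helices (FACITs) sit on the surface of such fibres, and type IV collagens form the sheet of the basement membrane. Fibroblasts and other mesenchymal cells are their usual high producers. H3K27ac is an acetylated histone lysine found at active promoters and enhancers. Valproic acid blocks the deacetylases that remove such acetyl groups, and CTCF binds DNA through zinc fingers and holds the bases of chromatin loops.

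The 12 lists differed in length. H3K27ac lists ran from 26299 to 29799 peaks for CTRL and from 38441 to 40992 for VPA, and CTCF lists held 39818 to 58782 and 36469 to 55325 peaks. Replicate 1 gave the shortest list in every group. Read totals are unknown from peak lists, and the background coverage, a measure of relative depth, lay between 3.51 and 3.95 fragments in all libraries. The cell type was checked by H3K27ac peaks within 1 kb of the start of marker genes. Of the genes listed for HEK293 cells, VIM, NEFM, NEFL and INA had such a peak in 6 of 6 libraries, while PAX2 and EYA1 had none. Of 7 fibroblast genes only TWIST1 had it in 6 of 6 libraries, and FAP, DCN and THY1 had no H3K27ac peak in their windows in any library. LUM, a small proteoglycan of collagen fibrils, had a promoter peak in 0 of 3 CTRL and 3 of 3 VPA libraries. The fibroblast list had a mean of 0.667 H3K27ac peaks per gene in CTRL and 1.14 in VPA, with more in every VPA library at LUM and PDGFRB, and whether this has a part in the results below was not tested. None of 4 blood and 3 hepatocyte markers had a promoter peak in 6 of 6 libraries, and TTR, a hepatocyte marker, had one in 2 of 3 VPA libraries.

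More H3K27ac peaks were called at the collagen genes after VPA, mostly inside the genes. The CTRL libraries had 38, 66 and 62 peaks in the collagen windows and the VPA libraries had 71, 95 and 103. Every VPA library thus lay above every CTRL library, although VPA replicate 1 exceeded CTRL replicate 2 by few peaks. Means were 55.3 ± 15.1 for CTRL and 89.7 ± 16.7 for VPA (SD, n = 3), a ratio of 1.62. The exact permutation test over the 20 assignments of the labels gave p = 0.1 (two-sided), the smallest value that 3 against 3 libraries allow, and the adjusted value was 0.467 over 14 tests. The difference had the same direction in 3 of 3 replicate numbers, with 33, 29 and 41 more peaks in VPA.

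**Figure D1:**
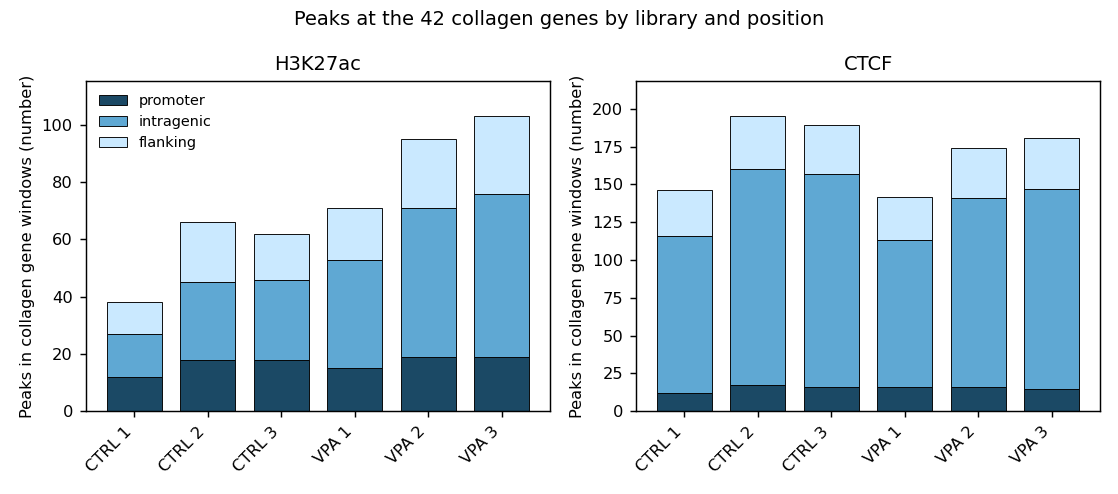
Number of peaks in the windows of the 42 collagen genes in each library, for H3K27ac (left) and CTCF (right), stacked by position: within 1 kb of a collagen start (promoter), elsewhere in a gene body (intragenic), or in the 10 kb on either side (flanking). In H3K27ac the intragenic part is 15 to 28 peaks in CTRL and 38 to 57 in VPA, while the promoter part is 12 to 18 and 15 to 19.

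Most of the difference, 25.7 of 34.3 peaks, lay inside the gene bodies. Intragenic H3K27ac peaks numbered 15, 27 and 28 in CTRL and 38, 52 and 57 in VPA, so the groups did not overlap. Their mean was 23.3 ± 7.23 for CTRL and 49 ± 9.85 for VPA, a ratio of 2.1 (exact permutation p = 0.1, n = 3 in each group). Promoter peaks, within 1 kb of a start, numbered 12, 18 and 18 in CTRL and 15, 19 and 19 in VPA, and these groups overlapped (exact permutation p = 0.5, n = 3). Flanking peaks numbered 11, 21 and 16 in CTRL against 18, 24 and 27 in VPA (exact permutation p = 0.2, n = 3). Over all protein-coding genes the ratio of VPA to CTRL means was 1.04 at promoters, 1.58 in gene bodies and 1.78 in flanks, against 1.10, 2.1 and 1.44 at the collagen genes. Most of the difference over all genes was intragenic too. Their intragenic peaks numbered 10323 to 11869 in CTRL and 17234 to 18275 in VPA, and their window peaks 21763 to 24290 and 30740 to 32491.

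The length of the VPA lists moved with this count. The share of each H3K27ac list that lay in collagen windows was 0.144%, 0.223% and 0.208% in CTRL and 0.185%, 0.232% and 0.252% in VPA, and the groups overlapped (exact permutation p = 0.4, n = 3). When each list was limited to its 26299 strongest peaks, the mean difference between the treatments shrank from 34.3 to 7.67 peaks (exact permutation p = 0.5, n = 3). More acetylated positions and more peaks passing the caller's threshold cannot be told apart in peak lists.

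Among the 42 genes, 9 had more H3K27ac peaks in every VPA than in every CTRL library, and 0 had fewer. Of the 9, COL9A1 and COL19A1 met this only with a single region that is counted for both. Over all protein-coding genes 10.2% had more and 0.147% had fewer, so 21.4% of the collagen genes compares with that background. The collagen genes are long, with a median body of 133.5 kb against 27.9 kb for all genes. Of the 24 collagen genes of 100 kb or longer, 5 had more peaks in every VPA library, and 15.8% of all genes of that length did so. Of the 18 shorter ones 4 had more, and 8.94% of all shorter genes. With lists of equal length 2 collagen genes were left, COL16A1 and COL26A1, against a background of 1.61%. Counted over gene bodies without flanks, 5 genes had more (COL3A1, COL9A1, COL13A1, COL14A1 and COL26A1). The share of all genes was not computed for that setting, so this count cannot be read as an excess. For each single gene the exact permutation test gave p = 0.1 at best (n = 3), so no gene can be called alone.

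FACIT genes made up the largest group, with 5 of 10 members above their CTRL range, although over gene bodies without flanks only COL14A1 and COL9A1 of these were. The share over all protein-coding genes was 10.2%, with 15.8% at genes of 100 kb or longer and 8.94% at shorter ones. Whether FACIT genes differ from other genes was not tested. COL16A1, a minor component of fibrils in skin and cartilage, had 1, 2 and 2 peaks in CTRL against 4, 4 and 5 in VPA. COL14A1, which takes part in fibril assembly, had 3, 7 and 7 in CTRL and 9, 10 and 10 in VPA. COL19A1 had 2, 1 and 1 in CTRL and 3, 4 and 3 in VPA. In VPA replicates 2 and 3 these included a region in an intron of its neighbour COL9A1. That region is counted for both genes, and without it the groups of either gene overlapped. COL9A1, a chain of the type IX collagen that coats cartilage fibrils, had a single peak in each CTRL library and 2, 2 and 3 in VPA, counting that region. COL21A1 had no peak in any CTRL library and 1, 2 and 3 in VPA. The lowest VPA library of each of these genes was above the highest CTRL library by 1 or 2 peaks. COL9A3, another chain of type IX collagen, had 2, 7 and 4 peaks in CTRL against 5, 7 and 10 in VPA, and its groups overlapped. COL22A1, found at muscle-tendon junctions, had none in any library.

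Of 11 fibrillar genes, 2 were above their CTRL range. COL1A1, which encodes the main chain of type I collagen of bone and skin, had 2 peaks in every CTRL library and 3, 3 and 4 in VPA. Its gene body held 1 peak in each of the 6 libraries, so the additional VPA peaks lay in its flanks. COL3A1, the chain of type III collagen of blood vessels and skin, had 0, 1 and 1 in CTRL and 2, 3 and 3 in VPA. COL1A2, the partner chain of COL1A1, had no H3K27ac peak in any library. COL2A1, the main cartilage collagen, had 2, 3 and 3 in CTRL and 2, 4 and 4 in VPA, with overlapping groups. Of 4 transmembrane collagens COL13A1 had a single peak in each CTRL library and 2, 3 and 3 in VPA. None of the 4 basement membrane genes, 5 beaded filament (type VI) genes, 3 short-chain network genes or 2 multiplexins met this criterion. In all, the mean number was higher in VPA at 26 members, lower at 4 and equal at 12, and these directions were not counted over all genes. The median difference per gene was 0.333 peaks, the same as the 0.333 over all protein-coding genes. Besides COL22A1 and COL1A2, COL15A1 and COL28A1 lacked an H3K27ac peak in all 6 libraries.

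**Figure D2:**
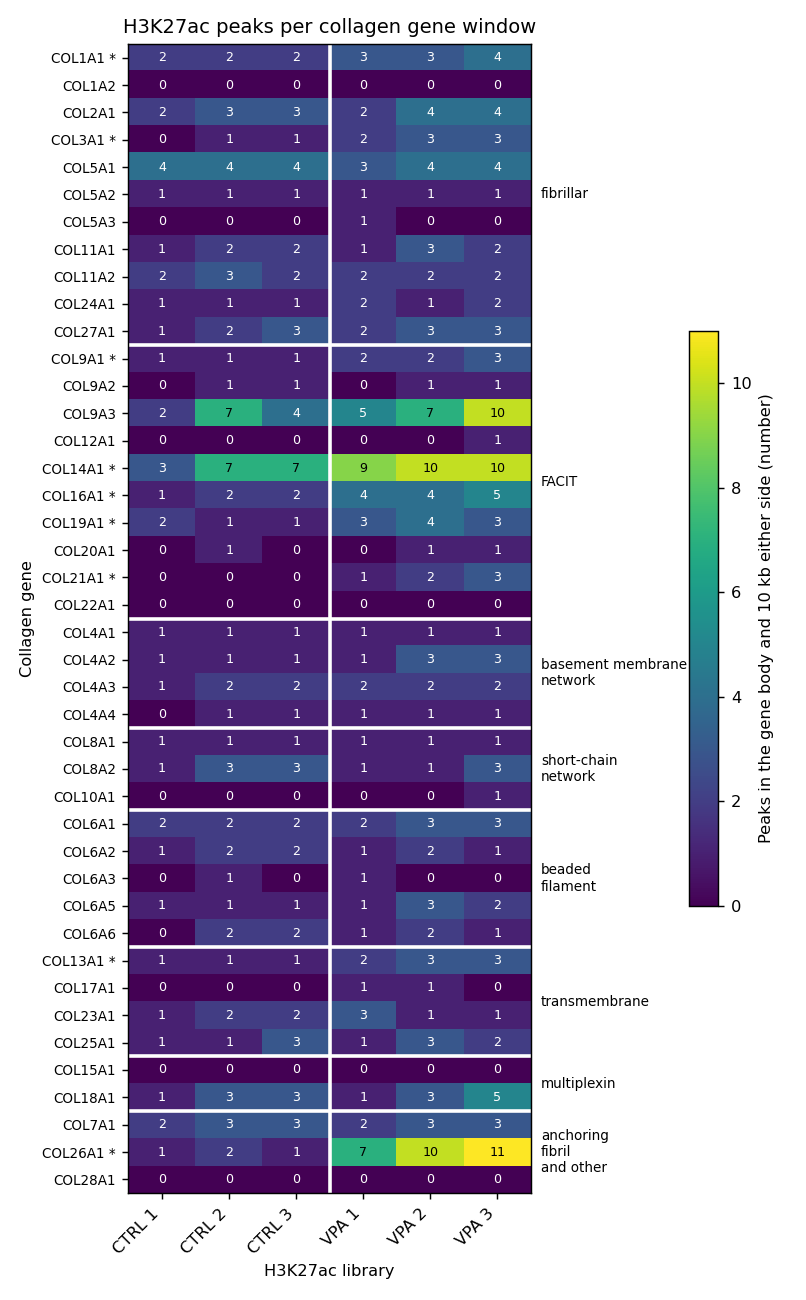
Number of H3K27ac peaks in the window of each collagen gene (rows, grouped by collagen class) in each of the 6 libraries (columns). Asterisks mark the 9 genes with more peaks in every VPA than in every CTRL library, and COL26A1 shows the widest gap, with 1 to 2 peaks in CTRL and 7 to 11 in VPA.

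COL26A1, which encodes a collagen known from testis and ovary, contributed most. Its H3K27ac peaks numbered 1, 2 and 1 in CTRL against 7, 10 and 11 in VPA, a difference of 8 in the means. The promoter peak was present in 6 of 6 libraries, and the other peaks lay in introns along the 196.2 kb of the gene, except for 1 region upstream with a peak in 2 of 3 VPA libraries. Introns at 20.1, 28.3, 132.1 and 168.9 kb from the start held regions that were called in 3 of 3 VPA libraries and in no CTRL library. A region at 74.2 kb was found in 3 of 3 VPA libraries and in CTRL replicate 2 alone. CTCF peaks in the same window numbered 9, 9 and 9 in CTRL and 7, 10 and 9 in VPA, so the groups of this antibody overlapped. With COL26A1 left out, the remaining 41 genes had 37, 64 and 61 peaks in CTRL against 64, 85 and 92 in VPA, a ratio of 1.49, and the lowest VPA library then equalled the highest CTRL library. Without all 9 genes the ratio was 1.25. COL26A1 and the 9 genes were picked for their higher VPA counts, so the ratio had to fall without them.

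**Figure D3:**
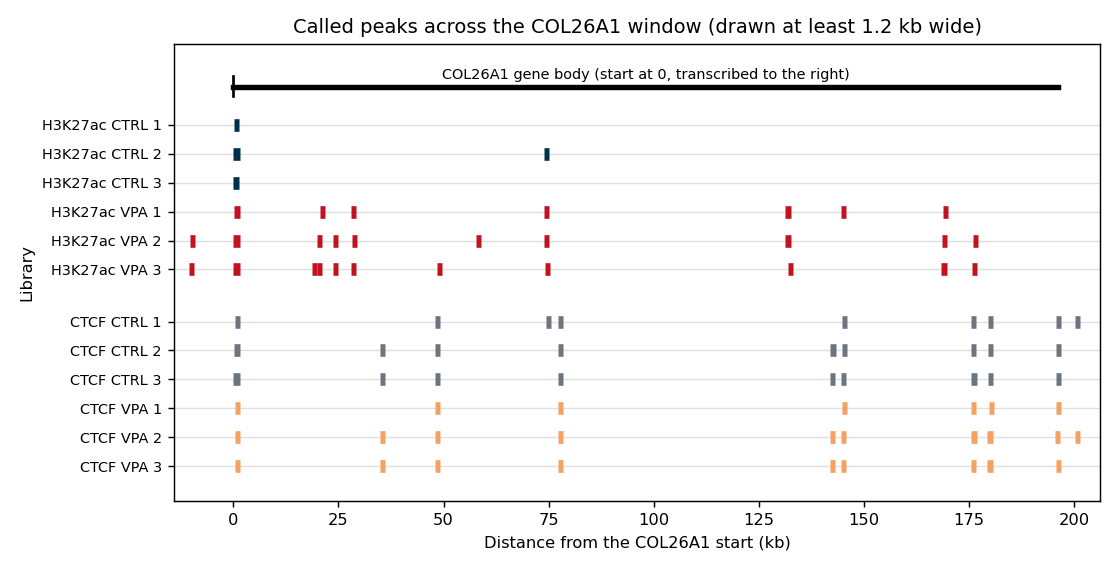
Called peaks across the COL26A1 window, by distance from the gene start in kb, in the 6 H3K27ac and the 6 CTCF libraries (rows). Every library has a peak at the start, the CTRL rows of H3K27ac hold at most 1 further peak while the VPA rows hold 6 to 10, and the CTCF rows look alike between treatments, with 9 peaks in each CTRL library and 7 to 10 in VPA.

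At the level of single positions, the H3K27ac peaks of the 6 libraries were merged into 127 regions in collagen windows, of 55382 in all. Of these, 11 (8.66%) were called in every VPA library and in no CTRL library (only in VPA), and 0 the reverse (only in CTRL). The background over all regions was 4.12% only in VPA and 0.139% only in CTRL. With equal list lengths 2 of 93 regions were left, against 1.47% of all regions. Without VPA replicate 1, 25 regions met the criterion, so the count depends on that list. The share of all regions was not computed without that library. By position, 8 of 75 intragenic, 3 of 31 flanking and 0 of 21 promoter regions were only in VPA. The share of all regions was not computed by position, so this split cannot be read as particular to the collagen genes. Regions with a peak in any number of VPA libraries but in no CTRL library numbered 54 (42.5%; all regions 39.4%), and the reverse 5 (3.94%; all regions 5.20%). The 11 regions had a median width of 1134 bp, compared with 2616 bp for the 36 regions found in all 6 libraries. Over all regions these widths were 1038 and 2558 bp.

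The most enriched of them lay in an intron of COL6A6, a chain of the beaded filaments, 84.7 kb from its start (chr3:130601059-130602458 of hg38). Its fold enrichment over local background was 5.77, 6.06 and 6.86 in the VPA libraries. In COL16A1 the region lay in an intron 3.21 kb from the start (chr1:31700377-31701887), with fold enrichments of 2.97, 5.44 and 4.47. These 2 regions were also the ones left with lists of equal length. The 4 COL26A1 regions (chr7:101382686-101383849, chr7:101390957-101391625, chr7:101494159-101495156 and chr7:101531098-101532471) had fold enrichments of 1.76 to 5.15. The COL21A1 region lay 5.88 kb upstream of the start (chr6:56398796-56400491) and had 3.42, 4.63 and 3.65. Intronic regions of COL19A1 (299.9 kb from the start, chr6:70165880-70166633) and COL14A1 (24.8 kb from the start, chr8:120084241-120084748) coincided with CTCF peaks that were present in 3 of 3 libraries of both treatments. The remaining 2 regions lay downstream of COL1A1 and COL9A3 inside the neighbouring genes SGCA (chr17:50173090-50174202) and TCFL5 (chr20:62841884-62843017), so their assignment to a collagen gene rests on distance alone.

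Promoter acetylation was less common at the collagen genes than at genes in general, and its presence differed between treatments at few of them. An H3K27ac peak within 1 kb of the start was present in 6 of 6 libraries at 13 members (31.0%), compared with 58.1% of all genes, and in none of the 6 libraries at 19 members (45.2%; all genes 32.9%). The 13 were COL24A1, COL27A1 and COL5A1 (fibrillar), COL19A1 (FACIT), COL4A1 and COL4A2 (basement membrane), COL8A1 (short-chain network), COL6A1 and COL6A2 (beaded filament), COL13A1 and COL25A1 (transmembrane), COL18A1 (multiplexin, the source of endostatin) and COL26A1. COL4A1 and COL4A2 start head to head, and a single region covers both promoters. Likewise COL4A3 and COL4A4, the chains of the glomerular basement membrane, share a region that was present in 2 of 3 CTRL and 3 of 3 VPA libraries, at 3.94 and 5.05 in CTRL replicates 2 and 3 and at 1.94, 4.67 and 7.36 in VPA.

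The COL4A1 and COL4A2 promoter was the most enriched of the 13 in CTRL, with fold enrichments of 8.03, 32.2 and 21.1, and had 4.72, 13.6 and 15.4 in VPA. COL18A1 had 3.98, 17.8 and 12.8 in CTRL and 5.22, 26.2 and 19.6 in VPA, where it was the most enriched in replicates 2 and 3. COL26A1 had 5.27, 24.6 and 13.8 in CTRL and 3.42, 11.4 and 13.6 in VPA. Replicate 1 was the lowest of its treatment at each of these 3 promoters, and the treatments overlapped. COL6A1 and COL6A2, which lie side by side on chromosome 21, had fold enrichments between 4.36 and 20.3. The other promoters lay between 1.81, at COL19A1 in VPA replicate 1, and 17.7, at COL25A1 in CTRL replicate 2.

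Of the promoters without a peak in all libraries, COL16A1 had one in 2 of 3 CTRL and 3 of 3 VPA libraries, with fold enrichments of 6.61 and 6.75 in CTRL replicates 2 and 3 and of 3.73, 7.80 and 9.53 in VPA. At COL1A1 the peak of CTRL replicate 1 (3.38) ended more than 1 kb inside the gene, and the other fold enrichments were 5.76 and 8.65 in CTRL and 5.39, 8.04 and 11.2 in VPA. The COL3A1 promoter was acetylated in 0 of 3 CTRL and 2 of 3 VPA libraries, at 4.96 and 5.36 in VPA replicates 2 and 3, and so was that of COL9A3, at 3.07 and 2.95. COL12A1 had a promoter peak in VPA replicate 3 only, at 2.44. The opposite pattern was seen at COL23A1, with peaks in CTRL replicates 2 and 3 (2.53 and 2.84) and in 0 of 3 VPA libraries. COL6A6 had a promoter peak in 2 of 3 CTRL libraries (2.68 and 2.54) and in VPA replicate 2 (2.89). COL2A1 had it in replicates 2 and 3 of both treatments, at 4.39 and 2.46 in CTRL and 4.30 and 2.54 in VPA. No collagen promoter went from 0 of 3 to 3 of 3 libraries or the reverse.

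Sequences upstream of 3 promoters are shown because the tests of H3K27ac below turn on these members. They were taken from RefSeq promoter sequences (GRCh38.p14), which were matched for 30 of the 42 genes, and contain no annotated collagen exon. Capitals mark the Sp1-type motif GGGCGG on either strand (CCGCCC on the strand printed), which 59.6% of all 14616 matched protein-coding promoters of this table hold in the 250 bases before and 50 bases after the start. The stretch between COL4A1 and COL4A2 is chr13:110307158-110307257 on the plus strand, the 150 bases upstream of COL26A1 are chr7:101362725-101362874, and those upstream of COL18A1 are chr21:45405015-45405164.
COL4A1/COL4A2: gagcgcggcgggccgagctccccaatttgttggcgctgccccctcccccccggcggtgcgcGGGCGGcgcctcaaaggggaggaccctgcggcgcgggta
COL26A1: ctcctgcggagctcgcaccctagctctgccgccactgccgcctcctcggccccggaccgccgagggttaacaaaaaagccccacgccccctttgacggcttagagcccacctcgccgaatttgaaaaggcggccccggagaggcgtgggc
COL18A1: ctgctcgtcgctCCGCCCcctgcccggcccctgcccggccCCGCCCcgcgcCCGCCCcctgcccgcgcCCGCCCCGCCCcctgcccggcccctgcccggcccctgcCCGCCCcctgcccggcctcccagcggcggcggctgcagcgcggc
The GC content of these stretches was 78.0%, 68.0% and 90.0%, and GGGCGG occurred 1 time between the type IV genes, 0 times upstream of COL26A1 and 6 times upstream of COL18A1.

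Peak height could be compared only where all 6 libraries had a peak, at 36 of the 127 collagen regions (28.3%) and 18407 (33.2%) of all regions. The log2 fold enrichment of each region was centred on the median of its library and tested with limma across all shared regions. No region passed an adjusted p of 0.05, in collagen windows or in the whole genome (0%). At an unadjusted p under 0.05, limma found 0 collagen regions higher and 3 lower, against 2.02% and 6.17% of all shared regions. The median log2 change was 0.13 over the collagen regions and -0.05 over all shared regions. The median local background under the summits was 22.3 fragments in CTRL replicate 1 and 8.82 to 9.94 in the other H3K27ac libraries. In fold enrichment over shared regions, same-numbered libraries deviated together from their group means. Replicates 2 and 3 also correlated across numbers, so whether the numbers are pairs was not settled.

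With the replicate number as a block, 3 collagen regions rose and 3 fell, and 6.56% and 8.71% of all shared regions did so. An intron of COL11A1, a minor fibrillar chain of cartilage, rose by 1.09 on the log2 scale (SE 0.25, limma adjusted p = 0.00901; chr1:103106493-103107454). An intron of COL9A3 rose by 0.85 (limma adjusted p = 0.0269; chr20:62822183-62825810), and the COL18A1 promoter by 0.61 (limma adjusted p = 0.0495; chr21:45404463-45407323). The shared promoter of COL4A1 and COL4A2 fell by 0.73 on the log2 scale (SE 0.21, limma adjusted p = 0.0238; chr13:110306331-110309049). The other regions that fell were the promoters of the neighbours MFF, in the flank of COL4A3, and PHYKPL, in the flank of COL23A1.

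The fragments over each summit (the summit pileup) were also recovered from the fold enrichment and the p-value of each peak and divided by the background coverage, which leaves the local background out. With this measure, centred in the same way, limma called 10 collagen regions higher and 8 lower, and 12% and 27.1% of all shared regions. Without centring 3 were higher and 5 lower, with 4.57% and 17.1% of all shared regions, and the median over all shared regions moved from -0.04 to -0.28, so the directions below are relative to the bulk of the shared regions.

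The COL1A1 promoter region (chr17:50199128-50201419) had summit pileups of 140, 122 and 108 fragments in CTRL and 223, 194 and 175 in VPA. All VPA values lay above all CTRL values, and the region rose by 0.87 on the log2 scale (SE 0.09, limma adjusted p = 0.000339). The COL11A1 intron had 20, 37 and 24 fragments in CTRL and 51, 53 and 50 in VPA, again without overlap (log2 change 1.17). The COL9A3 intron had 86, 103 and 76 fragments in CTRL and 157, 129 and 123 in VPA (log2 change 0.82). These 3 regions were also called without centring. The other regions that rose were a region 11.2 kb upstream of COL16A1 (0.64), an intron of COL2A1 (0.46), a region downstream of COL1A1 (0.46), the COL8A1 promoter (0.39), an intron of COL14A1 (0.39), and the COL18A1 (0.29) and COL6A2 (0.28) promoters.

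An intron of COL5A1, which encodes a chain of type V collagen that sets fibril diameter, had 99, 74 and 64 fragments in CTRL and 41, 32 and 30 in VPA (chr9:134811252-134813030). It fell by 0.999 on the log2 scale (SE 0.20, limma adjusted p = 0.00446). The COL4A1 and COL4A2 promoter had 246, 194 and 195 fragments in CTRL and 145, 116 and 118 in VPA, and every VPA value was below every CTRL value (log2 change -0.55). The COL26A1 promoter had 260, 231 and 195 fragments in CTRL and 207, 137 and 150 in VPA, with overlapping groups and a log2 change of -0.29, which passed the test in this fit alone (limma adjusted p = 0.0365, and 0.078 without centring). The COL19A1 region that fell (-0.53) also covers the start of LMBRD1 on the opposite strand. Of the remaining 4 that fell, 3 were or included promoters of neighbours (RXRB and SLC39A7, PHYKPL, and MFF), and the other lay downstream of COL11A2 (-0.39). The MFF, PHYKPL and COL26A1 regions were not called without centring, and the other 5 were. The COL4A1 and COL4A2, MFF and PHYKPL regions fell and the COL11A1, COL9A3 and COL18A1 regions rose in both the blocked fit and the pileup fit.

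**Figure D4:**
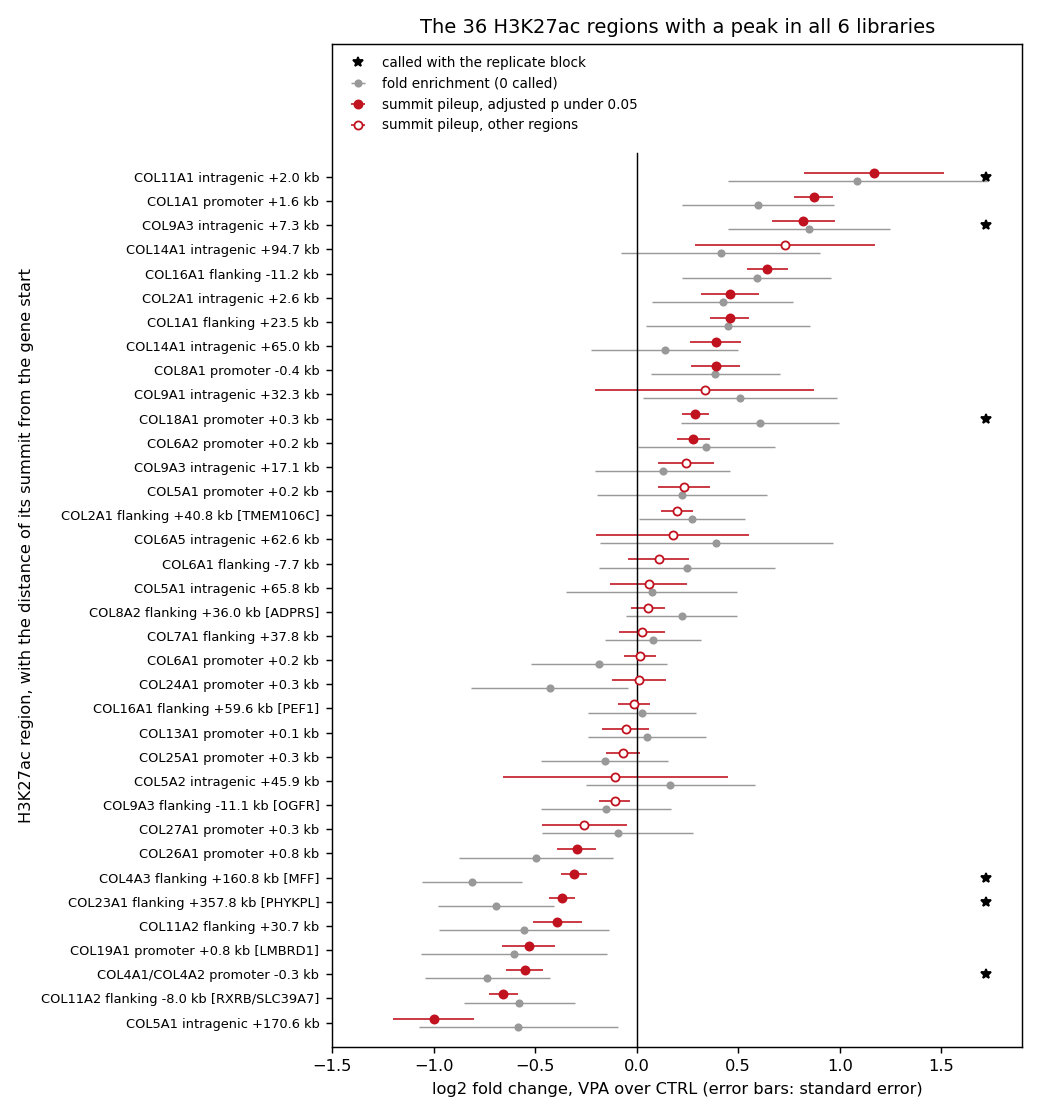
log2 fold change (VPA over CTRL) with its standard error for the 36 H3K27ac regions in collagen windows with a peak in all 6 libraries, from fold enrichment (grey) and from summit pileup (red, filled where the limma adjusted p is under 0.05). Stars mark the 6 regions called from fold enrichment with the replicate block, and names in brackets are neighbouring genes whose promoter the region covers. The COL11A1, COL1A1 and COL9A3 regions lie farthest to the right among those called, and the COL5A1 intron at -0.999 farthest to the left.

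Fewer CTCF peaks were called at the collagen genes in VPA than in CTRL, by less than the spread between replicates. The CTRL libraries had 146, 195 and 189 peaks in the windows and the VPA libraries had 142, 174 and 181. The groups overlapped at 176.7 ± 26.7 and 165.7 ± 20.8 (SD, n = 3) and an exact permutation p of 0.5. Within replicate numbers the VPA library differed from the CTRL library by -4, -21 and -8 peaks in the windows and by -7, -18 and -9 in the gene bodies, one direction in 3 of 3 numbers (exact permutation p = 0.25 over swaps, the smallest they allow, n = 3). The mean number was lower in VPA at 24 members, higher at 8 and equal at 10, directions that were not counted over all genes. The median difference per gene was -0.333 peaks, and 0 over all protein-coding genes. Over all protein-coding genes the ratio of VPA to CTRL means was 0.935 in windows, against 0.938 at the collagen genes. The share of the list was 0.344% in CTRL and 0.347% in VPA (exact permutation p = 1, n = 3). Every collagen gene had a CTCF peak in at least 1 library, and 0 of 42 had more peaks in every VPA library (background 0.351%). COL16A1 had fewer, with 7 in each CTRL library and 5, 6 and 6 in VPA (background 0.774%). The genes with most CTCF peaks were COL13A1, with 12, 14 and 15 in CTRL and 9, 14 and 12 in VPA, and COL5A1, with 9, 12 and 12 against 10, 12 and 12. They were followed by COL26A1, by COL23A1, with 7, 9 and 9 against 5, 8 and 8, and by COL22A1, with 8 in each CTRL library against 6, 8 and 8.

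Of the 219 CTCF regions in collagen windows (69985 in all), 1 was found only in VPA and 1 only in CTRL, where the background was 0.186% and 0.326%. The VPA region lay at the start of COL12A1, a FACIT of tendon and ligament (chr6:75205756-75206434), with fold enrichments of 2.68, 2.85 and 3.07. The CTRL region lay in an intron of COL16A1 (chr1:31691955-31692448), with fold enrichments of 3.77, 6.34 and 3.67. Neither held the motif described below at its summit. A peak in all 6 libraries was found at 109 collagen regions (49.8%) and at 39.7% of all CTCF regions. Of these 109, limma called 0 at an adjusted p of 0.05, with fold enrichment, with the replicate block and with the summit pileup, as over all shared regions (0%). With replicates 2 and 3 only, limma called 0 of 156 collagen regions and 1 region in the whole genome. At an unadjusted p under 0.05 the fit of fold enrichment over all replicates found 0 collagen regions, against 0.14% higher and 0.317% lower over all 27794 shared regions.

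The strongest CTCF region was at the start of COL1A1 (chr17:50200087-50201734), overlapping the H3K27ac region described above. Its fold enrichments were 70.9, 137.6 and 105.3 in CTRL and 85.2, 159.3 and 108.9 in VPA, and the groups overlapped. The core CTCF motif, here CCA, AG and GGC with any 2 bases between them, searched on both strands within 100 bp of the summit, occurred at 36 of the 219 collagen regions (16.4%) and at 17% of all CTCF regions, compared with 1.37% and 0.723% of windows of the same length 2000 bp away. Among regions with a peak in all 6 libraries it occurred at 25 of 109 (22.9%; all regions 26.2%). The 6 matches below show the site beneath the CTCF signal, and belong to the most enriched regions that held the motif in all 6 libraries, among members with a RefSeq promoter entry and outside annotated UTRs. Each is written in the orientation of the motif, which is in capitals, with 10 bases on either side.
COL13A1 intron, chr10:69914819-69914850, minus strand: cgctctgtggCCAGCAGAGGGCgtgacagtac
COL4A4 intron, chr2:227033550-227033581, plus strand: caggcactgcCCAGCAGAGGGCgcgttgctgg
COL26A1 intron 48.5 kb from the start, chr7:101411382-101411413, minus strand: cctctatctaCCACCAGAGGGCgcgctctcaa
COL26A1 intron 176.1 kb from the start, chr7:101538974-101539005, minus strand: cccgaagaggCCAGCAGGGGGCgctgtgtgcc
COL9A2 exon, chr1:40315451-40315482, minus strand: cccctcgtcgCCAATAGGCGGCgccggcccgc
COL26A1 intron 77.7 kb from the start, chr7:101440570-101440601, minus strand: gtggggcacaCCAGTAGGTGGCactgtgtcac
The COL13A1 site had fold enrichments of 131.7, 110.5 and 101.4 in CTRL and 108.2, 78.3 and 75.3 in VPA, and the groups overlapped. In these 6 regions the motif lay 1 to 29 bp from the summit.

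Some of the H3K27ac peaks called only in VPA libraries lay on CTCF regions. The CTCF regions found in at least 4 of 6 CTCF libraries, 168 in collagen windows, were taken as a fixed set. The share of them under an H3K27ac peak was 12.5%, 21.4% and 20.2% in the CTRL libraries and 20.2%, 25.6% and 29.2% in the VPA libraries, and the groups overlapped at their edge (exact permutation p = 0.3, n = 3). Of the 54 regions with H3K27ac peaks in VPA libraries alone, 16 (29.6%) lay on such a CTCF region, 15 of 41 in gene bodies, 1 of 10 in flanks and 0 of 3 at promoters, and 20.75% of all regions of that pattern in the genome did so. Of the 11 regions only in VPA 2 (18.2%) did so, below the 29.9% of all such regions, and of the 36 regions found in all 6 libraries 24 (66.7%), above the 40.2% of all such regions. In COL13A1 all 3 intronic H3K27ac regions coincided with CTCF regions present in 3 of 3 libraries of both treatments, and none of the 3 had an H3K27ac peak in CTRL. At COL19A1 the CTCF region under the H3K27ac region only in VPA had fold enrichments of 194.8, 75.5 and 82.6 in CTRL and 17.5, 82.2 and 95.7 in VPA. In the introns of COL26A1, the 3 H3K27ac regions that coincided with CTCF regions present in all 6 libraries and the 4 that were only in VPA were different regions. The VPA effect on the number of peaks differed between the antibodies by 0.79 in log2 ratio (0.70 for H3K27ac and -0.09 for CTCF). This difference had an exact permutation p of 0.055 over 400 assignments (n = 3 in each group), with an adjusted value of 0.467 over the 14 tests. Swaps within replicate numbers gave an exact permutation p of 0.0313, the smallest they allow here, which was not adjusted. With equal list lengths the difference was 0.187 (exact permutation p = 0.465, n = 3), and the whole lists had ratios of VPA to CTRL means of 1.40 for H3K27ac and 0.936 for CTCF.

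The genes that make, secrete, cross-link and sense collagen were listed apart from the collagen genes. Of 64 such genes, 7 (10.9%; all genes 10.2%) had more H3K27ac peaks in every VPA library and 0 had fewer. A promoter peak in 6 of 6 libraries was present at 42 of the 64 and at 58.1% of all genes. In CTCF, 0 had more and 0 had fewer. P3H1 and P3H2, prolyl 3-hydroxylases, had 2 peaks in each CTRL library against 4, 4 and 3, and 1 in each against 2, 3 and 2. COLGALT2, a collagen galactosyltransferase, had 1, 2 and 1 in CTRL and 3, 4 and 3 in VPA. CREB3L1, a transcription factor of collagen secretion in bone, had 4, 3 and 3 in CTRL and 6 in each VPA library. TLL1, a protease that trims procollagen, had 1 in each CTRL library and 3, 3 and 2 in VPA. Of the receptors, ITGA10, an integrin of cartilage, had 2, 3 and 3 in CTRL and 4 in each VPA library, and its promoter peak was found in 0 of 3 CTRL and 3 of 3 VPA libraries. MRC2, which takes up collagen fragments, had 3, 4 and 3 in CTRL and 6, 7 and 7 in VPA. Of these 7 genes all but P3H1 also had a region only in VPA, which is not a separate result, as both criteria rest on the same peaks. The 9 genes of inducing ligands and their effectors had a promoter peak in 6 of 6 libraries, and 0 of 9 had more peaks in every VPA library.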

How the data were processed

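ChIP-seq peak lists of 12 libraries of HEK293T cells were analysed, and the 6 input libraries were not analysed here. The authors aligned paired reads to hg38 with Bowtie2 and called peaks per library with MACS (3.0.0a7 per the submitters' processing notes) at a q-value of 0.05, without pooling. Each deposited list gives the interval, the summit, an integer score, the fold enrichment (a ratio over local background) and the p-value and q-value as −log10, as the authors' peak caller computed them. Whether inputs served as control, and how duplicates were treated, is not given in the sources used here. The study tested differences with DiffBind, which needs reads and was not run.

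Peaks of an antibody were merged into regions wherever they shared 1 bp. Genes were those of GENCODE release 44. Counts of peaks were compared by exact permutation tests, two-sided, with Benjamini-Hochberg adjustment over 14 tests. With swaps within replicate numbers the smallest p is 0.25 for a single antibody and 0.0313 for the difference between the antibodies. Regions with a peak in all 6 libraries were tested with limma 3.58.1 (trend, robust) in R 4.3.3 on log2 fold enrichment, adjusted over all shared regions. Summit pileups recovered from fold and p-value were whole within 0.05 in 100% of peaks. Tested on simulated data, the H3K27ac fit of fold enrichment without the block missed most planted changes and the CTCF fits missed all of them, so a count of 0 from these fits does not show that peak heights were alike. The H3K27ac summit pileup fit recovered most. Same-numbered H3K27ac libraries deviated together from their group means (correlations of 0.865, 0.585 and 0.591 over shared regions), so the blocked values are given, although replicates 2 and 3 also correlated across numbers (0.607 and 0.554). Python 3.11.15, numpy 2.4.6, pandas 2.3.3 and scipy 1.17.1 were used.

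Named were members with a region only in VPA or only in CTRL, an H3K27ac promoter peak, H3K27ac peak numbers without overlap between treatments, or a called shared region, the 5 members with most CTCF peaks, and pathway genes meeting the region or overlap criterion in H3K27ac. Alternatives were a −log10 q-value of at least 3 (at least 5 for shared regions), equal list lengths, summits in place of intervals, bodies without flanks, promoters of 5 kb or of any transcript, no centring, the replicate block, summit pileup and leaving out each library. Replicates 2 and 3 only, and pileup without centring, were chosen after seeing the data. The members and gene lists were chosen with earlier results of these data known. Positions on sex chromosomes were not analysed here. A marker gene of the cell line is not reported here.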

Additional observations from a re-analysis of the deposited data

How the results depend on the processing

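Most alternatives (282 values) kept direction and side of the threshold, and the cause of the other changes was not tested. Read depth is unknown, so peaks near the caller's threshold limit every count, and 3 libraries a group limit every exact test.

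Differences are VPA minus CTRL. With a −log10 q of at least 3, 2 CTCF regions were only in CTRL and 2 genes had fewer CTCF peaks. With equal list lengths, 2 H3K27ac regions were only in VPA and 2 genes had more H3K27ac peaks, the CTCF difference was 1.67 peaks in the windows and 0 in flanks, 0 CTCF regions were only in CTRL and 2 genes had more CTCF peaks. The antibody difference was then 0.187 (exact permutation p = 0.465, n = 3). Without flanks, 5 genes had more H3K27ac peaks, the CTCF share differed by -0.000569 percentage points and the antibody difference was 0.872 (exact permutation p = 0.045, n = 3). With the start of any transcript, CTCF promoter peaks differed by -1.33. With the summit pileup, 10 shared H3K27ac regions were higher and 8 lower, and without centring 3 and 5.

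With the replicate number as a block, 3 shared H3K27ac regions were higher and 3 lower, and 2 genes had fewer CTCF peaks in every pair. The antibody difference of 0.789 then had an exact permutation p of 0.0313 (n = 3), the smallest these swaps allow. The block changed no other call. Same-numbered CTCF libraries correlated at 0.340, -0.0451 and 0.477 in fold enrichment, the tested value, and at 0.791, 0.543 and 0.852 in summit pileup, where replicates 2 and 3 also correlated across numbers (0.848 and 0.566), so whether the CTCF numbers are pairs was not settled.

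With replicates 2 and 3 only, 25 H3K27ac regions were only in VPA, 2 only in CTRL, 1 gene had fewer H3K27ac peaks and 3 shared regions were lower. CTCF promoter peaks then differed by -1, flanking peaks by 0 and the share by -0.00658, with 3 CTCF regions only in VPA, 6 only in CTRL, 1 gene with more and 6 with fewer CTCF peaks.

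Leaving out each library in turn, the H3K27ac difference ranged from -0.333 (without CTRL replicate 1) to 3 at promoters, with 11 to 25 regions only in VPA (25 without VPA replicate 1) and 0 to 2 only in CTRL (2 without CTRL replicate 1), and 9 to 13 genes had more H3K27ac peaks. The antibody difference ranged from 0.579 to 0.935, with exact permutation p = 0.01 without CTCF CTRL replicate 1 and 0.045 without CTCF VPA replicate 3 (n = 3). Other omissions gave a larger exact permutation p. It was 0.095 without CTCF CTRL replicate 2 and 0.1 without H3K27ac CTRL replicate 1. Without H3K27ac VPA replicate 2 it was 0.11, and without H3K27ac VPA replicate 3 also 0.11. The CTCF difference ranged from -26.3 to 0.833 in windows, -0.833 to 1.67 at promoters, -1.5 to 1.17 in flanks, -23.7 to 10.03 kb in covered length and -0.0178 to 0.0144 in share, with 1 to 3 regions only in VPA, 1 to 5 only in CTRL, 0 to 1 genes with more and 1 to 5 with fewer peaks.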
